A study of Mus musculus with 16 samples.

Results

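The comparison described here set anti-CD40 treatment against isotype treatment in mice that carried B2m-null B16 melanomas. It took in 4 of the series' 8 droplet lanes, 2 of each treatment, and kept barcodes with at least 200 detected genes and at most 10% of counts from mitochondrial genes. By this rule 46559 of the 99357 passing cells of the series belonged to it, 10707 and 11927 from the anti-CD40 lanes and 12139 and 11786 from the isotype lanes. C57BL/6J mice were injected under the skin with 1000000 tumour cells (Bro4.1 B16, B2m-null). On days 6, 9 and 12 they received 100 µg of anti-CD40, or of rat IgG2a as isotype antibody, by the intraperitoneal route. Tumours were taken on day 14, digested, and enriched for CD45-positive cells on magnetic beads. The sample labels give B2M KO as a genotype of the animal. The series' design text puts it in the implanted cells, which is the reading followed. Whether the B2m-null line is 1 clone is not given. No untreated tumour was part of the comparison.

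CD40 is a receptor of the tumour necrosis factor family on dendritic cells, macrophages, monocytes and B cells, and its usual ligand comes from activated CD4 T cells. Receptor engagement recruits TRAF adaptors, activates NF-kB, and raises antigen presentation, costimulation and cytokine output. B2m encodes the light chain that every classical MHC class I molecule needs at the cell surface, so tumour cells that lack it cannot show peptides to CD8 T cells and lose a brake on natural killer (NK) cells. Host immune cells in these tumours keep their own B2m gene.

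Each mouse carried its own hashtag antibody and the mice of a group were pooled into 1 lane per replicate, so that 4 anti-CD40 mice and 5 isotype mice could be separated. The labels list 3 hashtags per pool, but the files hold 3 for isotype replicate 1 and 2 for each other lane of the comparison. A mouse here is therefore a hashtag in the files. Whether a pool held a further mouse, and where its cells went, was not tested. Mice of a lane shared a pool and a library, and p-values measure the spread between these mice. Values per mouse are given in a fixed order, first the mice of the replicate 1 lane (2 anti-CD40, 3 isotype) and then the 2 mice of the replicate 2 lane. Total counts of unique molecular identifiers (UMIs) ran from 48719173 to 99264875 per lane and median UMIs per barcode from 2182 to 4225, with both replicate 2 lanes deeper than both replicate 1 lanes. In the replicate 1 lanes 40.6% of isotype barcodes and 57.9% of anti-CD40 barcodes could be given to a mouse, against 75.2% and 84.8% in the replicate 2 lanes. Median hashtag counts per barcode were 327 and 727 in the replicate 1 lanes and 331 and 552 in the replicate 2 lanes, and the cause of the lower shares was not tested. Lanes therefore stand beside mice for the main cell shares and the counts of genes called. Any 2 of the 8 lanes shared 0.308% to 0.623% of the smaller lane's barcodes.

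B2m was checked first, in melanoma-like cells, which carry Pmel and other pigment genes. B2m stood at 461 and 416 CPM (counts scaled to a total of 1000000) in the 2 anti-CD40 lanes (90 and 45 cells) and at 239 and 190 CPM in the 2 isotype lanes (322 and 153 cells). The 95% Poisson intervals, which cover counting error only, were 429 to 495, 384 to 450, 226 to 253 and 179 to 201 CPM. In tumours of control cells the same class held 1089 to 2137 CPM in 4 lanes, above every B2m-null lane. The labels give both control anti-CD40 lanes as technical replicates, so these 4 lanes are 3 separate samples. The residual B2m counts were higher in both anti-CD40 lanes than in both isotype lanes, and B2m also rose in macrophage-like and monocyte-like host cells. What part of it came from free RNA of those cells was not tested, and the labels do not say whether the edited gene still gives a 3' transcript that this assay would count.

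The immune make-up of the tumours differed between the treatments. CD8 T-like cells made up 6.82%, 19.1%, 32.4% and 26.3% of haematopoietic cells in the anti-CD40 mice and 2.89%, 1.21%, 2.503%, 6.00% and 1.28% in the isotype mice. Every anti-CD40 mouse lay above every isotype mouse, though the lowest of the former (6.82%) was close to the highest of the latter (6.00%). The means were 21.2% ± 10.99 (SD, n = 4) and 2.78% ± 1.95 (SD, n = 5), a 7.63-fold difference. Unnamed clusters with raised CD8 T cell markers, described below, are not in this class. By lane, over all cells that were not hashtag doublets, the shares were 16.1% and 30.03% against 2.39% and 3.55%.

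All 4 dendritic cell classes were scarcer under anti-CD40. Conventional type 1 dendritic (cDC1)-like cells, which carry Xcr1 and Clec9a and are known for presenting tumour antigen to CD8 T cells, formed 0.275%, 0.0859%, 0.350% and 0.395% against 1.68%, 7.48%, 4.17%, 1.92% and 2.44%. Plasmacytoid dendritic (pDC)-like cells, known as type I interferon producers, formed 0.0784%, 0.0859%, 0.137% and 0.367% against 2.71%, 3.49%, 3.13%, 2.32% and 3.12%. Mature dendritic-like cells, which carry Ccr7 and Fscn1, formed 1.57%, 0.572%, 0.243% and 0.423% against 5.53%, 11.9%, 4.48%, 4.46% and 3.21%. The groups did not overlap in any of these 3 classes. Conventional type 2 (cDC2)-like cells averaged 0.607% ± 0.354 (SD, n = 4) against 4.49% ± 1.85 (SD, n = 5), also without overlap. Cells without a mouse were not spread evenly: in the anti-CD40 replicate 1 lane they were 79.2% of pDC-like, 73.7% of cDC1-like, 48.2% of CD8 T-like and 40.3% of monocyte-like cells. Lanes, which count all of these cells, gave the same order in each class, for example 0.376% and 0.383% against 4.90% and 2.25% for cDC1-like cells and 0.237% and 0.211% against 3.09% and 2.69% for pDC-like cells, where the first lane lay above both of its mice. The 2 anti-CD40 lanes held 38 and 40 cDC1-like, 45 and 76 cDC2-like, 99 and 31 mature dendritic-like and 24 and 22 pDC-like cells.

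These 5 classes were the ones that passed a 2-sided exact permutation test of mean shares over mice, each with p = 0.0159, the smallest value 4 against 5 mice can give, and an adjusted p of 0.0444 over the 14 haematopoietic classes. With any lane or any mouse left out, with lanes as the unit, or with permutation within replicate number, 0 of the 14 classes passed, because fewer arrangements of the mice were left. The 5 differences kept their direction in each of these settings, but their size moved with single lanes. The CD8 T difference of 18.4 percentage points was 10.2 without anti-CD40 replicate 2, and without isotype replicate 1 the cDC1 difference went from -3.26 to -1.90 and the mature dendritic difference from -5.23 to -3.14. The pDC difference of -2.79 percentage points shrank to -1.12 when cells with fewer than 500 genes or over 5% mitochondrial counts were removed. pDC-like cells had median mitochondrial shares of 6.23% to 6.72%, above the limit of that filter.

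CD4 T-like cells, other than the Foxp3-carrying regulatory T cells, formed 0.902%, 1.69%, 9.24% and 8.01% under anti-CD40 and 0.241%, 1.11%, 0.417%, 1.49% and 0.479% under isotype. The 2 mice of the second anti-CD40 lane were high, while a mouse of the first anti-CD40 lane lay inside the isotype range, and the difference of means did not pass (exact permutation p = 0.0635, adjusted 0.127). Plasma-like cells averaged 0.370% against 0.0600%, with an adjusted p of 0.111 in that test. An edgeR quasi-likelihood test on cell numbers with Benjamini-Hochberg adjustment called both (adjusted p = 0.000215 and 0.0147) besides the 5 classes above.

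Macrophage-like cells (36.4% ± 5.75 against 42.7% ± 10.996), monocyte-like cells (19.2% ± 10.7 against 22.4% ± 4.78), NK-like cells (3.24% ± 1.04 against 3.05% ± 2.15), regulatory T-like cells (1.47% ± 0.369 against 1.43% ± 0.911), neutrophil-like cells (2.00% ± 0.676 against 1.68% ± 1.14) and B-like cells (1.24% ± 0.933 against 1.29% ± 1.43) overlapped between the groups (SD, n = 4 and 5). The monocyte share differed between the anti-CD40 lanes themselves, at 28.6% in replicate 1 and 9.60% in replicate 2. These are shares of a total, and the number of cells per tumour was not measured. An unnamed cluster led by Ifng, Cd8a and Prf1, in whose cells myeloid transcripts were found beside those of T cells, made up 5.59% of anti-CD40 cells and 2.03% of isotype cells and is in none of these classes. An unnamed cluster with Cd209a, Xcr1, Clec9a and Foxp3 among its leading genes held 89 anti-CD40 and 471 isotype cells. It is in neither the dendritic nor the regulatory T shares. One led by Mmp9 and Ctsk, also unnamed, held 163 and 2 cells. Another unnamed cluster, led by Klra1, Klra7 and Tcf7, made up 1.45% of anti-CD40 cells (303) and 2.54% of isotype cells (567). All 6 CD8 T cell markers were raised in it, but it scored close to gamma-delta T cells too and was left out. The CD8 T-like class held 1628 and 3134 cells in the anti-CD40 lanes and 265 and 371 in the isotype lanes. Its difference with this cluster counted in was not tested.

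**Figure D1:**
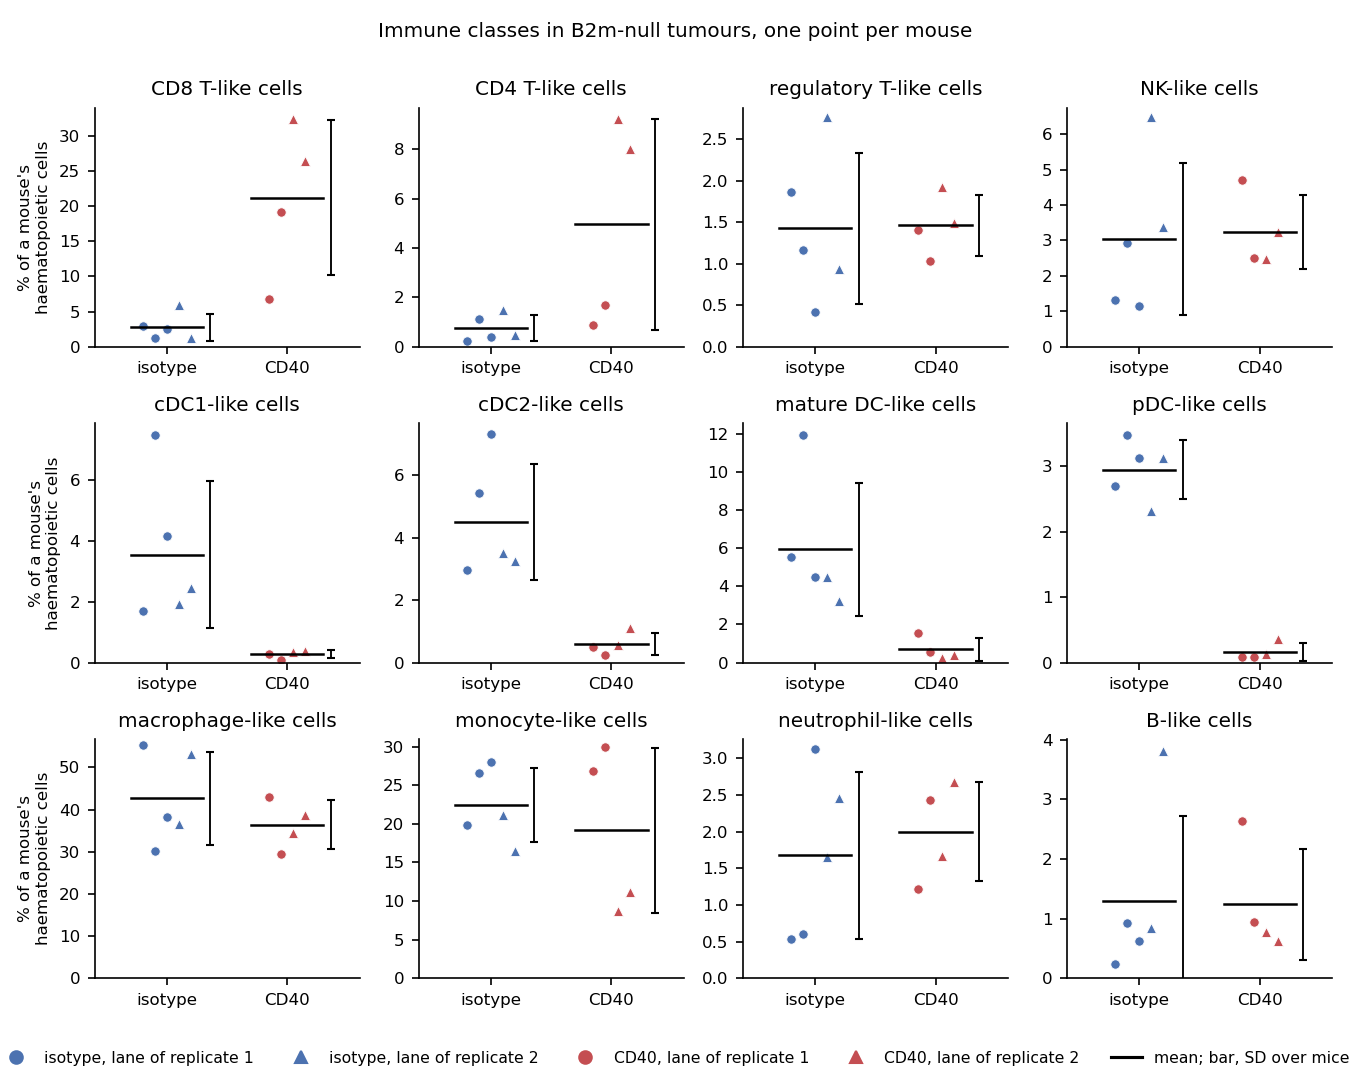
Share of each class among a mouse's haematopoietic cells (y axis, percent, starting at 0) in isotype and anti-CD40 mice with B2m-null tumours. Points are mice, symbols give the lane, black lines are means and bars are SD. CD8 T-like cells reached 32.4% under anti-CD40 against at most 6.00% under isotype, and the 4 dendritic classes lay below every isotype mouse.

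Macrophage-like cells changed broadly. Counts were summed per mouse and class and tested with edgeR's quasi-likelihood test and Benjamini-Hochberg adjustment over all genes tested in the class, here and in all classes below. CPM in the tested classes is further divided by a scaling factor per mouse from that fit (TMM). In macrophage-like cells these factors ran from 0.896 to 0.960 under anti-CD40 and from 1.023 to 1.097 under isotype. Of 10745 genes tested, 1514 rose (14.1%) and 1651 fell (15.4%) under anti-CD40, and 1502 and 1641 of them had both anti-CD40 lanes on the same side of both isotype lanes, as had 63.6% of all tested genes, called or not. The median log2 fold change over all tested genes was -0.02. At the Leiden resolution used, 1, some clusters of the class differed in weight between the groups and others did not. One led by Cd209f, Cd209g, Lyve1, Retnla and Cd163 had a mean weight of 26.6% under anti-CD40 and 28.9% under isotype. Another, led by Mmp13 and Mmp12, had 20.7% and 21.9%. With finer clustering (Leiden resolution 2) such near-equal weights were not seen. A cluster led by Cd209f, Cd209g and Lyve1 then held 2.52% of all anti-CD40 cells and 7.92% of all isotype cells. One led by Ltc4s, Retnla, Lyz1 and Saa3 held 5.18% and 0.749%, and one led by Mmp12 and Mmp13 4.22% and 8.38%. The other weights given are those of resolution 1. A cluster led by H2-M2, Gpnmb, Nos2 and Saa3 made up 16.2% of an anti-CD40 mouse's macrophage-like cells on average (14.4% to 17.6%) and 2.06% of an isotype mouse's (0.923% to 3.83%), whereas one led by Fcrls, Slc40a1, Gas6 and Igf1 made up 9.29% (7.48% to 10.9%) and 28.3% (15.5% to 44.5%). Clusters were drawn on the same genes, so this describes the class and is not a test, and changes within a cluster cannot be told apart from changes in cluster weight in the values summed over the class. Genes that rose included Cd40, MHC class I and class II genes, guanylate-binding proteins, Nos2 and complement genes. Genes that fell included the scavenger receptor gene Cd163 and the iron exporter gene Slc40a1.

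Cd40 stood at 63, 67, 44.6 and 63.2 CPM in the anti-CD40 mice and 27.2, 32.1, 44.7, 36.6 and 20 CPM in the isotype mice. A mouse of the second anti-CD40 lane matched the highest isotype mouse, and the other anti-CD40 mice lay above all of the isotype mice (log2 fold change 0.95 ± 0.20 (SE), adjusted p = 0.00623). Values with ± after CPM levels are log2 fold changes with their SE throughout. The SE is the size of the log2 fold change divided by the square root of the test's F value. Of the 22 tested members of the CD40 and NF-kB list, 11 rose and 0 fell, with a median log2 fold change of 0.47. They were the receptor, the adaptors Traf1 and Traf5, the subunits Rela, Relb and Nfkb2, the inhibitors Nfkbie and Nfkbib, the survival genes Bcl2a1b and Bcl2a1d, which are near-identical copies that share reads, and the adhesion gene Icam1. Traf1 rose by 1.23 ± 0.30 (adjusted p = 0.0135) and Nfkbie by 1.07 ± 0.19 (adjusted p = 0.00206).

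Genes of the interferon-gamma list rose in the same class. In that list 7 of 13 tested members rose, 1 of them Ifng itself, a T and NK cell product at 2.80 against 0.496 CPM, and 1, the kinase gene Jak1, fell (-0.24 ± 0.08, adjusted p = 0.0437). Irf1, an early transcription factor of the pathway, rose by 1.27 ± 0.28 (adjusted p = 0.00789), and its feedback inhibitor Socs1 by 1.64 ± 0.39 (adjusted p = 0.0127). Socs3, another feedback inhibitor, stood at 145, 132, 118 and 131 CPM against 47.6, 70.7, 72.4, 71.1 and 47.3 CPM, with no overlap (1.11 ± 0.14, adjusted p = 0.000446). Among guanylate-binding proteins, which are interferon-induced GTPases that attack vacuoles of pathogens, 7 of 9 tested members rose and 0 fell (median 1.34), and among the immunity-related GTPases 6 of 8 rose and 0 fell (median 1.14). Gbp2b stood at 62.8, 37.6, 19.4 and 27.2 CPM against 0.485, 3.26, 2.41, 6.52 and 0.344 CPM and so was at least 19.4 CPM in every anti-CD40 mouse and at most 6.52 CPM in every isotype mouse (3.94 ± 0.73, adjusted p = 0.0048). Igtp rose by 1.54 ± 0.24 (adjusted p = 0.00134) and Iigp1 by 1.36 ± 0.36 (adjusted p = 0.0215). Members of both families resemble each other closely, so reads of 1 member may be counted for another. In the type I interferon list 5 of 22 rose (Isg15 1.15 ± 0.27, adjusted p = 0.0111), 1 fell (Siglec1, -1.003 ± 0.20, adjusted p = 0.0042) and the median was 0.41.

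The promoters of 6 of the interferon-linked genes that rose in both macrophage-like and monocyte-like cells are shown because members of the interferon and NF-kB lists rose in both classes and the classical binding sequences of those factors can be read in them. Each is the 250 bases before the RefSeq gene start on GRCm38.p6, 5′ to 3′ on the gene's strand: B2m chr2:122147437-122147686, Gbp2b chr3:142594597-142594846, Gbp5 chr3:142496684-142496933 and Igtp chr11:58199306-58199555 on the plus strand, Socs1 chr16:10785537-10785786 and Socs3 chr11:117969367-117969616 on the minus strand. Capitals mark matches, on either strand, to the gamma-activated site (TTCNNNGAA), the interferon-stimulated response element (GAAA, any 2 bases, GAAA) or a kappa B site (GGGA, any 2 bases, TTCC).
B2m: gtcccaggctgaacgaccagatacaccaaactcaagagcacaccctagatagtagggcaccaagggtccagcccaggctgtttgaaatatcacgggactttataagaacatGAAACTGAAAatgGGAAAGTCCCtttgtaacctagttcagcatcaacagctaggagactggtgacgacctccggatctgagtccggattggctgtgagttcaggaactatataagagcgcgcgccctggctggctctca
Gbp2b: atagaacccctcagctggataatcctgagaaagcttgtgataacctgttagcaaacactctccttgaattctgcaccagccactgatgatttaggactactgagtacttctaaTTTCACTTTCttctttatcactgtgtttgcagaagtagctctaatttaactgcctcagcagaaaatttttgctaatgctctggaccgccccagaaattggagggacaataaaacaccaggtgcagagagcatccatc
Gbp5: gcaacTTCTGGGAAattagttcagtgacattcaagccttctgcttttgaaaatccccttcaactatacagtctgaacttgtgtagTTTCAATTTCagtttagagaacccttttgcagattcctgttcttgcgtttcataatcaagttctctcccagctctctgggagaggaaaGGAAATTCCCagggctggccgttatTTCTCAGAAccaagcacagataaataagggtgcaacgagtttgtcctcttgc
Igtp: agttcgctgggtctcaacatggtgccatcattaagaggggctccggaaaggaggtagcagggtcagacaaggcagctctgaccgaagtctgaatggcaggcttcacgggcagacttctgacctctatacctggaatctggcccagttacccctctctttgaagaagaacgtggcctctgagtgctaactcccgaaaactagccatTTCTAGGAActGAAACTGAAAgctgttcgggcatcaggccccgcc
Socs1: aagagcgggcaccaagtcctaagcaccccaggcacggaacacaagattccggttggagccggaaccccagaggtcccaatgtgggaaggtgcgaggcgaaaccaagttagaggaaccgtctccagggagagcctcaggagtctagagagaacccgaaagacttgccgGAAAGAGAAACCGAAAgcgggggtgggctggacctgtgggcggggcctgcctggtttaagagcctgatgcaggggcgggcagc
Socs3: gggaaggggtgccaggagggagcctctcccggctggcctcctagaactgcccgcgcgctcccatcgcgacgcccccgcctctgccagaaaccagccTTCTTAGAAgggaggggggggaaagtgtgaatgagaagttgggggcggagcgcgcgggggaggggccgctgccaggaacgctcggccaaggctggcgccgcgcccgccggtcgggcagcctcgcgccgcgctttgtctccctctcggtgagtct

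B2m held an interferon-stimulated response element match that began 139 bases before the start and a kappa B match at 126 bases. Gbp5 held all 3 motifs, with gamma-activated site matches at 245 and 52 bases, a response element match at 165 and a kappa B match at 77. Igtp held a gamma-activated site match at 45 bases followed by a response element match at 34, and Socs1 held a pair of response element matches, at 83 and 77 bases, that overlap and share 4 letters. Gbp2b held only a response element match, at 137 bases, and Socs3 only a gamma-activated site match, at 154. Over 32851 RefSeq promoters of 300 bases, 8.30% held the gamma-activated site, 3.44% the response element and 1.47% the kappa B sequence. The response element was in 4 of 5 promoters of guanylate-binding protein genes that rose in both cell types (4 of 7 genes matched), in 2 of 3 of immunity-related GTPases (3 of 6 matched), in 4 of 18 of MHC class I genes (16 of 19 matched), in 1 of 3 of MHC class II genes (3 of 5 matched) and in 1 of 7 of the interferon-gamma list (5 of 6 matched; 1 of the 7 promoters is that of Jak1, which fell in both). It was in 0 of 10 promoters of the CD40 and NF-kB list (8 of 10 matched). The kappa B sequence was in 2 of those 10, both of 1 gene, Nfkb2, in 2 of 5 of guanylate-binding protein genes and in 1 of 18 of MHC class I genes. The gamma-activated site was in 3 of 7 promoters of the interferon-gamma list, 2 of 10 of the CD40 and NF-kB list, 1 of 5 of guanylate-binding protein genes, 1 of 3 of immunity-related GTPases and 2 of 18 of MHC class I genes. In the 9 promoters of resident and scavenger genes that fell in both (8 of 10 matched) 0 matches to the 3 sequences were found, a count too small to set apart from the shares over all promoters. A match is a run of letters and was not tested for binding.

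In the MHC class I list 19 of 22 members rose and 0 fell, with a median log2 fold change of 0.85. B2m stood at 5199, 4583, 5030 and 5048 CPM against 2639, 3269, 2906, 3791 and 2323 CPM, higher in every anti-CD40 mouse (0.73 ± 0.13, adjusted p = 0.0024). The immunoproteasome subunit Psmb8 stood at 385, 503, 489 and 529 CPM against 163, 137, 169, 236 and 183 CPM (1.42 ± 0.15, adjusted p = 0.000155). H2-Q7, a non-classical class I gene, rose by 2.00 ± 0.22 (adjusted p = 0.000267), and its neighbour H2-Q6, with which it may share reads, by 1.79 ± 0.31 (adjusted p = 0.00279). The list also took in the peptide transporter genes Tap1 and Tap2, the classical heavy chains H2-K1 and H2-D1, and Nlrc5, the class I transactivator. In the MHC class II list 8 of 9 tested members rose and 0 fell (median 1.17), among them the transactivator Ciita, H2-Eb1 (1.74 ± 0.33, adjusted p = 0.00426) and the invariant chain gene Cd74 (1.59 ± 0.30, adjusted p = 0.00392).

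Of 14 tested costimulatory and inhibitory ligands, 5 rose and 1, Icosl, fell. Cd274, which encodes the inhibitory ligand PD-L1, stood at 217, 284, 242 and 262 CPM against 81.7, 91.7, 132, 171 and 65.6 CPM without overlap (1.22 ± 0.25, adjusted p = 0.0053), and the costimulatory gene Cd86 rose by 0.62 ± 0.17 (adjusted p = 0.0202) with overlapping mice. Of 14 tested cytokine genes, 6 rose and 0 fell, including Il15ra, which presents interleukin-15 to lymphocytes (1.51 ± 0.27, adjusted p = 0.0025), and the interleukin-18 decoy Il18bp (1.37 ± 0.16, adjusted p = 0.000298). Il12b, the interleukin-12 subunit, was too low to test, at 1.21, 1.26, 0.41 and 0.0968 CPM against 0.162, 0, 11.5, 0.272 and 0.31 CPM.

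Among 23 tested chemokines, 7 rose and 3 fell. Cxcl13, which attracts B cells and follicular T cells, stood at 188, 75.5, 109.6 and 171 CPM against 1.94, 14.4, 21.1, 5.62 and 3.1 CPM (4.49 ± 0.58, adjusted p = 0.00101). Cxcl9, which attracts T cells through Cxcr3, stood at 314, 689, 624 and 854 CPM against 214, 72.1, 215, 292 and 73.5 CPM (1.84 ± 0.46, adjusted p = 0.0159), with the lowest anti-CD40 mouse just above the highest isotype mouse. The 3 that fell were the platelet-type chemokines Ppbp (-2.85 ± 0.64, adjusted p = 0.0105) and Pf4 (-1.01 ± 0.12, adjusted p = 0.000264) and the eotaxin gene Ccl24 (-2.46 ± 0.71, adjusted p = 0.0292).

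Nos2, the inducible nitric oxide synthase, stood at 141, 211, 154 and 204 CPM against 7.76, 3.72, 28.4, 50.7 and 9.19 CPM, with no overlap (3.10 ± 0.59, adjusted p = 0.00523). Acod1, which makes itaconate, rose by 3.06 ± 0.53 (adjusted p = 0.0034), and in the arginine and itaconate list 7 of 11 members rose and 0 fell. Arg1, the arginase that uses the same substrate as Nos2, was not among them: its values of 544, 653, 466 and 516 CPM lay inside the isotype range of 238 to 1158 CPM (-0.20 ± 0.38, adjusted p = 0.739). The complement genes C3 (2.91 ± 0.34, adjusted p = 0.00058) and Cfb (1.76 ± 0.23, adjusted p = 0.000749) rose, as did 4 more of the 11 tested in that list, and 0 fell. Of 22 glycolysis and hypoxia genes 5 rose, led by Aldoa (0.85 ± 0.24, adjusted p = 0.0224).

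In the list of resident and scavenger macrophage genes 12 of 21 tested members fell and 0 rose, with a median log2 fold change of -0.66. Of these, Fcrls, Slc40a1, Gas6 and Igf1 lead the cluster whose weight was 9.29% against 28.3%, and its part in the falls was not tested. Lyve1 and Cd163 are among the leading genes of the cluster whose weight was 26.6% against 28.9%. With finer clustering (Leiden resolution 2) a cluster with both among its leading genes held 2.52% of all anti-CD40 cells and 7.92% of all isotype cells. The part of that cluster in the falls was not tested either. Cd163, the haemoglobin scavenger receptor, stood at 16.2, 10.5, 15.6 and 15.7 CPM against 33.5, 117, 91.1, 55.7 and 75.7 CPM, with no overlap (-2.31 ± 0.33, adjusted p = 0.00128). The iron exporter gene Slc40a1 stood at 6.76, 12.3, 37.7 and 21.9 CPM against 128, 97.7, 99.6, 91.1 and 139 CPM (-2.41 ± 0.39, adjusted p = 0.00251). Fcrls, Lyve1, Mrc1, Gas6, Igf1, F13a1, Stab1, Maf, Cd36 and Hmox1 fell too. Of 15 tested genes of lipid-associated macrophages 9 were not called, 3 rose (Gpnmb, 0.93 ± 0.30, adjusted p = 0.043, Fabp5 and Tyrobp) and 3 fell (the cholesterol exporters Abca1, -0.92 ± 0.15, adjusted p = 0.00143, and Abcg1 and the lipase Lpl), shares near those over all tested genes in both directions. Of 25 cell cycle genes only Mki67 was called, lower (-0.58 ± 0.18, adjusted p = 0.034). The 10 genes named for size alone, with no overlap between mice, further held Gm15056, Htra1, Ly6i, Slco2b1 and Cd209d.

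Several values moved with these results. All 6 CD8 T cell markers rose in the macrophage-like class, with a summed level of 27.9 to 48.3 CPM against 6.63 to 15.1 CPM, and Ifng (2.80 against 0.496 CPM), Gzma, Nkg7 and Ctsw rose there too. Their part in the interferon results was not tested, and the T cell genes are not read as macrophage expression. Of 7 melanoma markers 5 fell, from 94.4 to 120 CPM in sum under isotype to 60.5 to 73.0 CPM. Of 6 cDC2 markers Cd209a and Kmo fell, with overlapping sums of 136 to 324 CPM against 231.5 to 759.5 CPM. Of 7 neutrophil markers S100a8 and Mmp9 rose (59.9 to 78.0 CPM in sum against 24.4 to 68.2 CPM), and of 7 monocyte markers Ccr2, Vcan and Fn1 fell and Hp rose (424 to 827 CPM against 403 to 1123 CPM). The part of these cells in the results was not tested. Gm42418, a locus that overlaps ribosomal RNA sequence, fell by 1.78 on the log2 scale in macrophage-like cells, and it fell in all 5 classes tested, by 1.51 to 2.23. Malat1, an abundant nuclear RNA, fell in macrophage-like (-0.47, adjusted p = 0.00323), monocyte-like (-0.45, adjusted p = 0.00433) and CD4 T-like cells (-0.87, adjusted p = 0.00274, 10320 against 18870 CPM) and was not called in the CD8 T-like and NK-like classes. The part of RNA quality in the results was not tested. Libraries mattered for the count of genes: 1507 genes were called without the isotype replicate 1 lane, 1076 without the anti-CD40 replicate 2 lane and 2045 without mouse 2 of that lane. Of the 68 named genes that were called, 30 kept the call with each lane and each mouse left out in turn, among them Cd40, Nos2, Acod1, Cd163, Slc40a1, Gbp2b, Igtp, B2m, Psmb8, H2-Q7, C3, Cxcl13, Ccl5, Nfkbie and Socs3. Without the anti-CD40 replicate 2 lane the calls of 34 genes were lost, including Cxcl9, Cd274, Isg15, Socs1, H2-Aa and H2-Eb1, and 31 were lost without the isotype replicate 1 lane, including Cxcl9, Cd274, Irf1, Cd74 and Traf1. Without the anti-CD40 replicate 1 lane 18 were lost, including Iigp1, Irf1 and Ppbp, and without isotype replicate 2 there were 7, including Gpnmb and Ccl24.

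**Figure D2:**
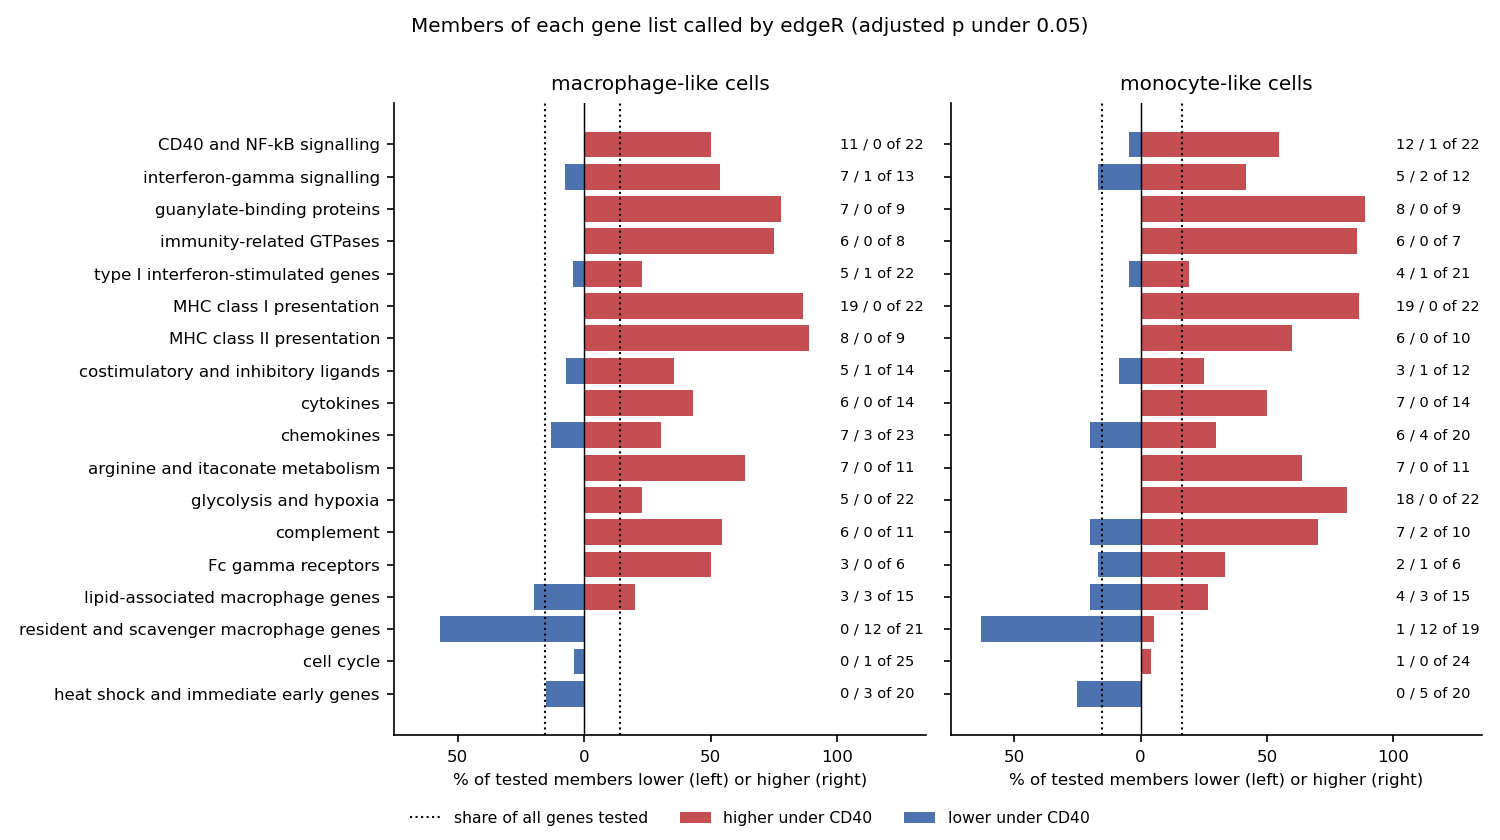
Share of tested list members that edgeR called higher (right, red) or lower (left, blue) under anti-CD40 in macrophage-like and monocyte-like cells, with the counts higher / lower of tested at the right of each bar and the share of all tested genes called in each direction as dotted lines. MHC class I genes were called higher for 19 of 22 members in both classes, while resident and scavenger genes were called lower for 12 of 21 and 12 of 19.

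Monocyte-like cells shared 69.4% of the macrophage-like class's rises, among them Cd40, Nos2 and MHC class I genes, and 56.8% of its falls. Of 9448 tested, 1556 rose (16.5%) and 1449 fell (15.3%), and 1545 and 1445 held in both lanes, as did 66.1% of all tested genes, called or not. Of the genes that rose, 1051 rose in macrophage-like cells as well (69.4% of the macrophage list and 67.5% of the monocyte list), and of those that fell 937 did so (56.8% and 64.7%), with 0 genes called in opposite directions. The mice are the same in both classes, so these overlaps are not independent of them. Clusters of this class differed in weight: a cluster led by Ly6i, Gm15056, Nos2 and Saa3 made up 57.4% of an anti-CD40 mouse's monocyte-like cells on average (43.4% to 83.1%) and 0.711% of an isotype mouse's (0% to 2.33%), whereas one led by Ccl24, Fn1 and Vcan made up 30.5% and 74.0%. Clusters were drawn on the same genes, so this describes the class and is not a test. The Ccl24-led cluster was named by a narrow margin, with a mean log2 marker score of 2.204 for monocytes and 1.988 for macrophages. For the Ly6i-led cluster the scores were 2.029 and 0.994. The part of this naming in the falls of macrophage genes given below was not tested.

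Cd40 stood at 119, 137, 93 and 91.8 CPM in anti-CD40 mice and 23.2, 39.8, 63.8, 46.6 and 30.6 CPM in isotype mice, with no overlap (1.495 ± 0.21, adjusted p = 0.000257). In the CD40 and NF-kB list 12 of 22 tested members rose (median 0.49), including Icam1 (1.22 ± 0.16, adjusted p = 5.19e-05), Traf1 and Birc3, and 1, the subunit gene Rel, fell (-0.84 ± 0.19, adjusted p = 0.00536). Of guanylate-binding proteins 8 of 9 tested rose (median 1.39) and of immunity-related GTPases 6 of 7 (median 1.63), with 0 fallen in either. Iigp1 stood at 273, 377, 280.4 and 236 CPM against 27.1, 25.9, 62.1, 78.2 and 34 CPM (2.64 ± 0.32, adjusted p = 0.000375). In the interferon-gamma list 5 of 12 rose and 2 fell, the receptor chain Ifngr1 (-0.55 ± 0.13, adjusted p = 0.00438) and Jak1.

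MHC class I genes rose for 19 of 22 members (median 0.97), and class II genes for 6 of 10 (median 0.99), with 0 fallen. H2-Q7 stood at 423, 441, 328 and 333 CPM against 61.9, 72.2, 63.8, 87.8 and 53.5 CPM, with no overlap (2.48 ± 0.15, adjusted p = 3.76e-08). B2m stood at 5362, 5282, 4419 and 4312 CPM against 2764, 3098, 2584, 2962 and 2286 CPM (0.82 ± 0.12, adjusted p = 0.000138). Both lanes of each group were thus apart, as in macrophage-like cells.

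Nos2 stood at 215, 491, 226 and 168 CPM against 0.967, 0.926, 24.5, 18.3 and 3.9 CPM, so that the lowest anti-CD40 mouse had 168 CPM and the highest isotype mouse 24.5 (4.83 ± 0.68, adjusted p = 0.0017). Upp1, a uridine phosphorylase (3.75 ± 0.41, adjusted p = 0.000288), Acod1 (3.17 ± 0.43, adjusted p = 0.00103) and 4 other members of the arginine and itaconate list rose (7 of 11 in all, median 1.52). Arg1 again did not, at 677, 704, 790.3 and 593 CPM against 446, 675, 852, 729 and 802 CPM (-0.02 ± 0.16, adjusted p = 0.944). Saa3, an acute phase protein gene, stood at 255, 626, 409 and 170.1 CPM against 18.4, 18.5, 4.91, 4.89 and 20.2 CPM (4.77 ± 0.58, adjusted p = 0.000764). Ptges, the prostaglandin E synthase gene, rose by 5.68 ± 0.96 (adjusted p = 0.00284), with a mouse of the first anti-CD40 lane at 69.8 CPM and the others at 15.0 to 19.4.

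Glycolysis and hypoxia genes rose for 18 of 22 members in monocyte-like cells (median 0.67), against 5 of 22 in macrophage-like cells; the difference between the classes was not tested. The glucose transporter gene Slc2a1 stood at 124, 168, 160.5 and 168 CPM against 43.5, 51.8, 62.1, 89.7 and 84.1 CPM (1.15 ± 0.18, adjusted p = 0.000415), and Aldoa rose by 1.26 ± 0.16 (adjusted p = 6.17e-05). Cytokine genes rose for 7 of 14, led by Il1a (2.73 ± 0.41, adjusted p = 0.000846). Il12b gave 18 counts under anti-CD40 and 2 under isotype and was too low to test (ratio 7.39, 95% counting interval 1.77 to 65.7, counting error only).

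Of 20 tested chemokines 6 rose and 4 fell. Ccl5, which attracts T cells, stood at 529.9, 638, 479.9 and 401 CPM against 50.3, 66.7, 68.7, 51 and 41.8 CPM (3.26 ± 0.16, adjusted p = 6.14e-09). Cxcl9 (1.93 ± 0.43, adjusted p = 0.0109) and Cxcl10 (1.33 ± 0.14, adjusted p = 1.14e-05) rose with it. Ccl24 stood at 6.6, 2.31, 33.6 and 35.5 CPM against 169, 147, 420.2, 938 and 192 CPM, with no overlap (-4.33 ± 0.99, adjusted p = 0.0147). Complement genes rose for 7 of 10, Cfb by 3.11 ± 0.21 (adjusted p = 2.27e-06), and the receptor C3ar1 was among those that fell.

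Resident and scavenger genes fell for 12 of 19 tested members (median -1.18), and 1, the scavenger receptor Marco, rose. Fcrls fell by 3.96 ± 0.45 on the log2 scale (adjusted p = 0.000145), the growth factor gene Igf1 by 2.96 ± 0.32 (adjusted p = 7.12e-05) and Gas6, a ligand for clearance receptors, by 2.48 ± 0.45 (adjusted p = 0.00307). Ednrb, the endothelin receptor gene, stood at 4.4, 2.73, 2.7 and 3.75 CPM against 21.3, 31.5, 34.3, 21.9 and 31.9 CPM (-3.07 ± 0.23, adjusted p = 6.7e-07). Of the monocyte markers Ccr2, Vcan and Fn1 fell and Hp rose. Of 8 macrophage markers the complement genes C1qa, C1qb and C1qc, which are among the 7 complement rises, rose and Adgre1 and the scavenger gene Mrc1 fell, with overlapping sums of 4214 to 7672 CPM against 4860 to 9531 CPM. Of 6 cDC2 markers 4 fell, from 335 to 667 CPM in sum to 112 to 271 CPM, and of 7 neutrophil markers S100a8 and S100a9 rose, from 34.3 to 56.2 CPM in sum to 72.6 to 185 CPM. Of 6 non-classical monocyte markers Ace, Ear2 and Cd300e fell and Treml4 rose, with sums of 64.6 to 74.3 CPM against 81.2 to 154 CPM that did not overlap. Of 7 melanoma markers Mlana, Tyrp1 and Dct fell, with sums of 52.8 to 73.0 CPM against 69.5 to 116 CPM. The part of these cell types in the results was not tested. Of 6 CD8 T cell markers 1 rose, from 8.02 to 39.2 CPM in sum under isotype to 21.6 to 47.5 CPM.

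The monocyte count fell to 1711 genes without the isotype replicate 1 lane and to 1763 without the anti-CD40 replicate 2 lane, and the falls went from 1449 to 923 without anti-CD40 replicate 1. Of 68 named genes called, 39 kept the call with each lane and mouse left out, among them Cd40, Icam1, Nos2, Upp1, Saa3, Ccl5, Cxcl10, H2-Q7, B2m, Iigp1, Slc2a1, Aldoa, Cfb, Fcrls, Igf1, Gas6 and Ednrb. Without the isotype replicate 1 lane the calls of 25 were lost, including Ccl24, Ptges, Cd274 and Cd74, and Cxcl9 was lost without either anti-CD40 lane. Ccl24 was also lost without anti-CD40 replicate 1 (12 lost in all), and Ptges without isotype replicate 2 (6 lost).

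**Figure D3:**
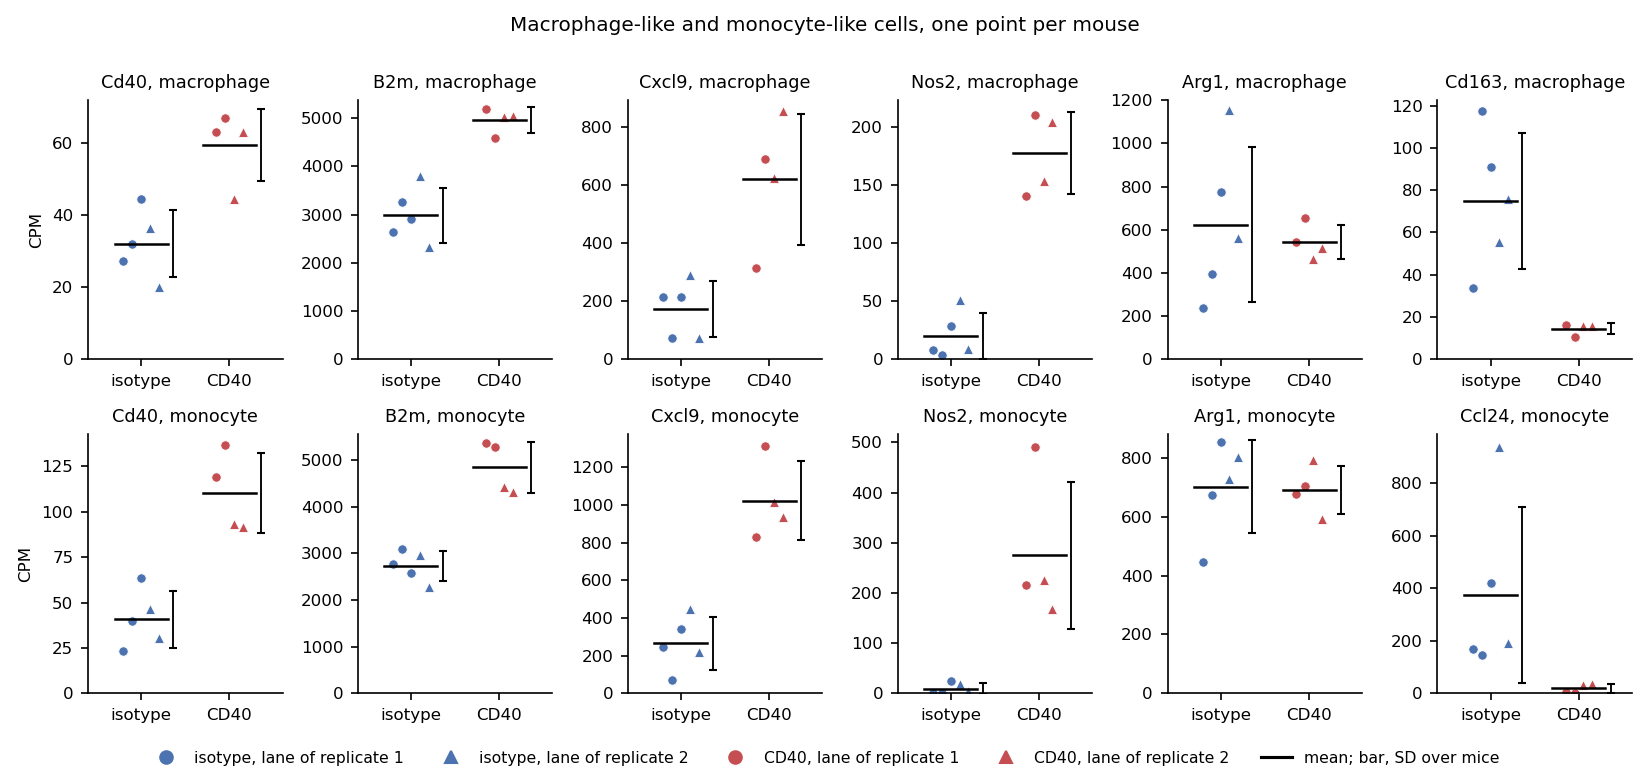
Expression per mouse (y axis, CPM of the class's summed counts, starting at 0) of Cd40, B2m, Cxcl9, Nos2 and Arg1 in macrophage-like (top) and monocyte-like cells (bottom), with Cd163 and Ccl24. Points are mice, symbols give the lane, lines are means and bars are SD. Arg1 overlaps between the groups in both classes, while Nos2 does not overlap in either.

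Dendritic classes could not be tested for expression, because 1 anti-CD40 mouse had 20 cDC1-like cells or more and 2 had 20 cDC2-like or mature dendritic-like cells or more, against 5 isotype mice in each. Values of summed lanes are therefore given without a test, anti-CD40 replicate 1 and 2 first. The genes were chosen after their values were seen. In the 5 tested classes 50.02% to 66.1% of all tested genes, called or not, were apart in both lanes. For the dendritic classes that share was not computed, so lanes that lie apart say little for a single gene. In mature dendritic-like cells Cd40 stood at 389 and 306 CPM against 169 and 179.9 CPM and Cxcl9 at 605 and 650.1 CPM against 141 and 148 CPM. Both genes were higher in both anti-CD40 lanes. Cd80, a costimulatory ligand, stood lower at 127 and 94.2 CPM against 184 and 204 CPM. The maturation gene Ccr7 (1301 and 1550 against 1426 and 1730 CPM) and Il12b (318 and 122 against 296 and 149 CPM) overlapped between the lanes.

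In cDC1-like cells Cd40 stood at 41.9 and 63.1 CPM against 22.1 and 28.6 CPM, H2-Q7 at 309 and 287 CPM against 125 and 120.1 CPM, and Psmb8 at 1274 and 1486 CPM against 585 and 977 CPM. Each was higher in both anti-CD40 lanes, as was Cxcl9 (383 and 677 against 80.1 and 230.2 CPM), whereas Cd86 (110.1 and 115 against 103 and 136 CPM) was not. In cDC2-like cells Cd40 stood at 172 and 112 CPM against 64.2 and 56.6 CPM, Cd86 at 205 and 165 CPM against 104 and 117 CPM and H2-Q7 at 449 and 303 CPM against 118 and 102 CPM. All 3 were higher in both anti-CD40 lanes. In pDC-like cells H2-Q7 stood at 962 and 1357 CPM against 380.2 and 439.6 CPM, and Siglech, a marker of the class, at 1241 and 1466 CPM against 1394 and 2024 CPM. The anti-CD40 values rest on 22 to 99 cells per lane.

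**Figure D4:**
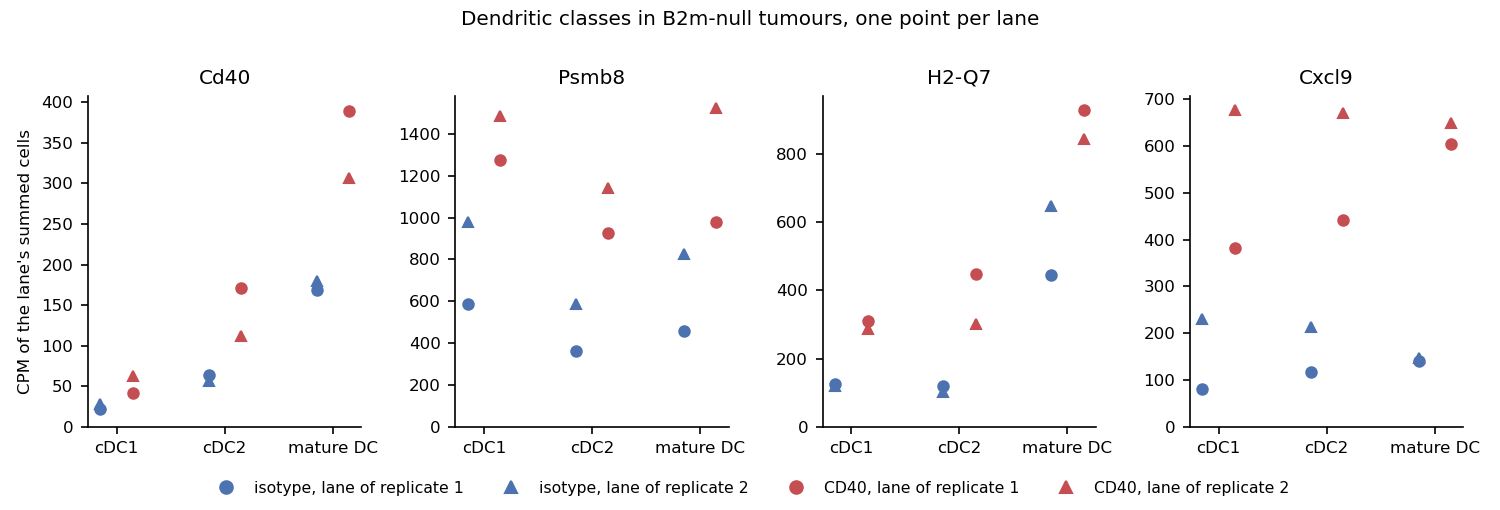
Expression per lane (y axis, CPM of the class's summed counts, starting at 0) of Cd40, Psmb8, H2-Q7 and Cxcl9 in 3 dendritic classes. Each point is 1 lane, coloured by treatment, with no test. In each panel and class both anti-CD40 lanes lie above both isotype lanes. An example is Cd40 in mature dendritic-like cells, at 389 and 306 against 169 and 180 CPM. The genes were chosen after their values were seen, and the share of all genes apart in this way was not computed.

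CD8 T-like cells were 7.63-fold more frequent under anti-CD40 and also differed in expression. The unnamed cluster led by Klra1, Klra7 and Tcf7 is in neither result. Of 6213 genes tested 222 rose (3.57%) and 147 fell (2.37%), with a median of -0.0035 over all genes. Of those called, 221 and 143 held in both lanes, as did 50.02% of all tested genes. The isotype side was thin, at 24 to 269 cells and 38034 to 1649694 UMIs per mouse, against 174 to 2131 cells under anti-CD40. The chemokine receptor gene Cxcr3, whose ligands include Cxcl9 and Cxcl10, and the integrin gene Itgb7 rose, 6 of 13 inhibitory receptor and exhaustion genes fell, and 3 of 14 cytotoxic genes rose.

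Cxcr3 stood at 131, 90.9, 252 and 193 CPM against 16.2, 23.5, 30.2, 63 and 45.9 CPM, with no overlap (1.78 ± 0.34, adjusted p = 0.00795). Itgb7 stood at 207, 244, 257 and 245 CPM against 24.2, 47, 106, 71.2 and 73.5 CPM (1.85 ± 0.22, adjusted p = 0.0002). In the list of effector regulators and homing receptors 4 of 21 rose and 1, Zeb2, fell. Among 14 tested cytotoxic genes 3 rose and 0 fell: the granule genes Nkg7 (1.09 ± 0.19, adjusted p = 0.00478) and Gzmk (1.003 ± 0.28, adjusted p = 0.0434) and the protease gene Ctsw (1.07 ± 0.23, adjusted p = 0.0137). Nkg7 stood at 1873, 1914, 2730 and 2596 CPM against 962, 634, 1193, 1148 and 1294 CPM. Gzmb (0.28 ± 0.23, adjusted p = 0.469) overlapped between the groups, and Ifng did so with 1 isotype mouse far above all other mice (515, 566, 227 and 448 CPM against 299, 141, 15.1, 200.4 and 2791 CPM, -0.81 ± 1.02, adjusted p = 0.689).

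Of 13 tested inhibitory receptor and exhaustion genes 6 fell and 1, Cd160, rose, with a median log2 fold change of -0.70. Havcr2, which encodes the inhibitory receptor Tim-3, stood at 50.6, 54, 38.9 and 48.1 CPM against 202, 94, 106, 152 and 91.8 CPM, with no overlap (-1.54 ± 0.22, adjusted p = 0.000797). Rgs16 (-1.98 ± 0.37, adjusted p = 0.00927), Cd244a (-1.80 ± 0.41, adjusted p = 0.0164), Nr4a2, Nr4a3 and Eomes fell as well. Pdcd1, which encodes PD-1, stood at 109.7, 117, 128 and 101.2 CPM against 162, 47, 121, 235 and 211 CPM and did not pass (-0.70 ± 0.22, adjusted p = 0.0557). Rbpj, the transcription factor of Notch signalling, fell by 1.87 ± 0.22 on the log2 scale (adjusted p = 0.000164). The stem-like gene Tcf7 overlapped between the groups (0.40 ± 0.56, adjusted p = 0.718), and 0 of 12 tested stem-like and naive genes were called. These values leave out the unnamed cluster led by Klra1, Klra7 and Tcf7, with 303 anti-CD40 and 567 isotype cells. Of 25 cell cycle genes 1, Mcm4, fell, and Mki67 was not called (-0.45 ± 0.26, adjusted p = 0.293). Type I interferon genes rose for 4 of 10 tested members (Irf7, Isg15, Xaf1 and Zbp1, median 1.18) and MHC class I genes for 7 of 22, including Psmb8 and H2-Q7.

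Clusters of the class differed in weight. One led by Gzmk held 62.6% ± 24.3 of an anti-CD40 mouse's CD8 T-like cells and 35.8% ± 18.1 of an isotype mouse's (SD, n = 4 and 5). One led by Gzmc, Ifng and Prf1 held the rest, 37.4% and 64.2%. Pdcd1 and Rgs16 are among its leading genes too, and its part in the falls was not tested. In values summed over the class, changes within a cluster cannot be told apart from changes in cluster weight. The class's own markers Cd8b1, Cd3d, Cd3g and Trac rose, with a sum over 6 markers of 3951 to 6550 CPM against 1950 to 3879 CPM, and the sum of 6 cDC2 markers stood at 6.33 to 18.2 CPM against 31.5 to 154 CPM. Of 7 monocyte markers Ly6c2 and Plac8, which lymphocytes can also carry, rose, with sums of 1631 to 2301 CPM against 753 to 1504 CPM. Gm42418 held 2626 against 12330 CPM. Their part in the results was not tested. The number of genes called moved with single libraries, to 33 without the isotype replicate 1 lane, 202 without isotype replicate 2 (152 higher and 50 lower), 1549 without anti-CD40 replicate 1 and 100 without anti-CD40 replicate 2. Leaving out single mice gave 90 to 913, with 520 without mouse 1 of anti-CD40 replicate 1 and 316 without mouse 2 of isotype replicate 1, the only ones within 1.5 times of 369. Of 31 named genes called, between 26 and 31 could be tested per setting. Itgb7, Havcr2, Rbpj, Gpr18 and Gm42418 kept the call in each setting in which they were tested. Cxcr3, Nkg7, Gzmk and Cd244a lost it without the isotype replicate 1 lane. Rgs16 lost it without either anti-CD40 lane, Ctsw without either isotype lane or anti-CD40 replicate 2, and Gzmk without anti-CD40 replicate 2.

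CD4 T-like cells of 4 anti-CD40 and 3 isotype mice were tested, with 21 to 67 cells per isotype mouse and 23 to 608 per anti-CD40 mouse. The isotype mice gave 27317, 151946 and 30317 UMIs, so low CPM values there rest on few counts. Of 2587 genes 124 rose (4.79%) and 139 fell (5.37%), with a median of -0.0005. Of those called, 124 and 129 held in both lanes, against 54.2% of all tested genes. Ifng, Nkg7 and Prf1 rose, and Il7r, Il1rl1 and Tcf7 fell. Ifng stood at 2475, 827, 438 and 733 CPM against 0, 47.8 and 79 CPM (4.45 ± 1.03, adjusted p = 0.0353). It was named by a rule that asked for no overlap. Nkg7 stood at 1716, 1499, 1977 and 2003 CPM against 342, 303 and 197 CPM (2.65 ± 0.26, adjusted p = 2.38e-05). Ifitm1, an interferon-induced membrane protein gene, gave 2240 counts under anti-CD40 and 0 under isotype, so it was at least 55.3-fold higher (3 counts over the group as the floor). Prf1, which encodes perforin, gave 215 counts against 1 (ratio 15.9, 95% counting interval 2.83 to 632) and Pglyrp1, a peptidoglycan recognition gene, 811 against 2 (95% counting interval of the ratio 8.29 to 248), both counting error only.

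The interleukin-7 receptor gene Il7r stood at 419, 207, 359 and 264 CPM against 1112, 861 and 2684 CPM, with no overlap (-2.25 ± 0.35, adjusted p = 0.002). Il1rl1, the interleukin-33 receptor, stood at 99.8, 215, 84 and 87.7 CPM against 1967, 454 and 553 CPM (-3.01 ± 0.57, adjusted p = 0.015). Tcf7 fell by 1.76 ± 0.34 on the log2 scale (adjusted p = 0.00723) with overlapping mice, the early activation marker Cd69 fell by 1.26 ± 0.27 (adjusted p = 0.0105), and 4 of 16 heat shock and immediate early genes fell, Fos by 1.79 ± 0.32 (adjusted p = 0.00381). In the lists 4 of 11 tested cytotoxic genes rose and 0 fell (median 1.66), 3 of 16 effector and homing genes rose and 0 fell, among them Cxcr6 (1.05 ± 0.23, adjusted p = 0.0121), and 2 of 9 stem-like genes fell and 0 rose.

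Cd8a and Cd8b1 were among the genes that rose in this class, Cd8b1 from 42.8, 79.7 and 158 CPM to 119.7, 379, 298 and 281 CPM, while Cd4 overlapped (0.02 ± 0.28, adjusted p = 0.976). The sum of the 6 CD8 T cell markers stood at 3752 to 5877 CPM against 1539 to 3475 CPM, but 4 of them (Cd3e, Cd3d, Cd3g and Trac) are general T cell genes that CD4 T cells also carry. What part of the cytotoxic genes came from CD8 T cells in the class was not tested. Without the isotype replicate 1 lane, which is 1 mouse here, 115 genes were called, without anti-CD40 replicate 2 68 and without anti-CD40 replicate 1 463, and each mouse of the replicate 2 lanes left out alone gave 85 to 154. Without isotype replicate 2 a single isotype mouse was left, with 24 cells and 27317 UMIs, so the number of genes called in that setting is not given. Calls lost in that setting, named below, rest on that mouse. Of 20 named genes called, between 17 and 20 could be tested per setting. Nkg7, Pglyrp1, Tmem64, Cd69, Fos, Fosb and Zfp36 kept the call in each setting in which they were tested. Ifng and Ifitm1 lost it without either isotype lane, Il7r and Prf1 without isotype replicate 2, and Il1rl1 without anti-CD40 replicate 2. Cxcr6 and Tcf7 lost it without either replicate 2 lane, and the log2 fold change of Tcf7 turned to 0.01 without isotype replicate 2.

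NK-like cells were tested in 4 mice of each group, with 22 to 290 cells per isotype mouse and 88 to 163 per anti-CD40 mouse. Of 4935 genes 210 rose (4.26%) and 128 fell (2.59%), with a median of -0.01. Both lanes held for 208 and 123 of them and for 51.7% of all tested genes. Klrg1, a receptor of terminally differentiated NK and T cells, stood at 296, 319.6, 221 and 263 CPM against 33.4, 83.5, 41.3 and 25.8 CPM, with no overlap (2.71 ± 0.26, adjusted p = 2.12e-07). Ifng stood at 399.7, 339, 284 and 646 CPM against 134, 115, 158 and 126 CPM, also with no overlap (1.58 ± 0.24, adjusted p = 0.0004). Of 15 tested cytotoxic genes 7 rose and 0 fell (median 0.88), among them Gzma (1.74 ± 0.30, adjusted p = 0.00983), Prf1 and Nkg7, and Gzmb did not pass (0.88 ± 0.54, adjusted p = 0.396).

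The transcription factor gene Mef2c stood at 35.5, 24.6, 23.1 and 24.5 CPM against 100.2, 93.9, 115 and 93.5 CPM (-1.95 ± 0.27, adjusted p = 8.57e-05). Eomes, a transcription factor of mature NK cells, fell by 0.96 ± 0.18 on the log2 scale (adjusted p = 0.00222). In the stem-like and naive list 4 of 10 tested members fell and 0 rose. Of 17 NK receptor genes 1, Klri2, fell (-0.91 ± 0.18, adjusted p = 0.0035) and 0 rose; reads may be shared within this family. MHC class I genes rose for 10 of 22 members and glycolysis genes for 5 of 19, with 0 fallen in either list.

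Cd8a, Cd8b1 and Cd3g were among the 5 genes named for their rise in the NK-like class, with Cd8a at 106, 197, 189 and 205 CPM against 0, 20.9, 29.8 and 3.22 CPM. Of 6 CD8 T cell markers 5 rose, with a sum of 735 to 1885 CPM against 248 to 292 CPM, while the sum of 7 NK markers stood at 2362 to 2803 CPM against 2566 to 3541 CPM. Of 7 monocyte markers Ly6c2 and Plac8, which lymphocytes can also carry, rose, with sums of 2006 to 2749 CPM against 802 to 1283 CPM. The part of T cells in the rises of Gzmk, Gzma, Ifng and Klrg1 was not tested. Of 6 B cell markers Ighm fell, with sums of 63.9 to 98.8 CPM against 125 to 200.5 CPM. Sums of 7 melanoma markers stood at 2.10 to 19.7 CPM against 20.9 to 66.8 CPM, with 0 called. The part of these cells was not tested either. The count moved to 146 without isotype replicate 2 (124 higher and 22 lower), to 154 without anti-CD40 replicate 2, and to between 154 and 220 without mouse 2 of anti-CD40 replicate 1 or any mouse of the replicate 2 lanes. Of 26 named genes called, 25 or 26 could be tested per setting. In each setting in which they were tested 5 kept the call, among them Klrg1, Ifng, Klri2 and Cd8a. Mef2c, Eomes, Gzmk and Gzma lost it without isotype replicate 2, and Gzma also without either anti-CD40 lane.

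**Figure D5:**
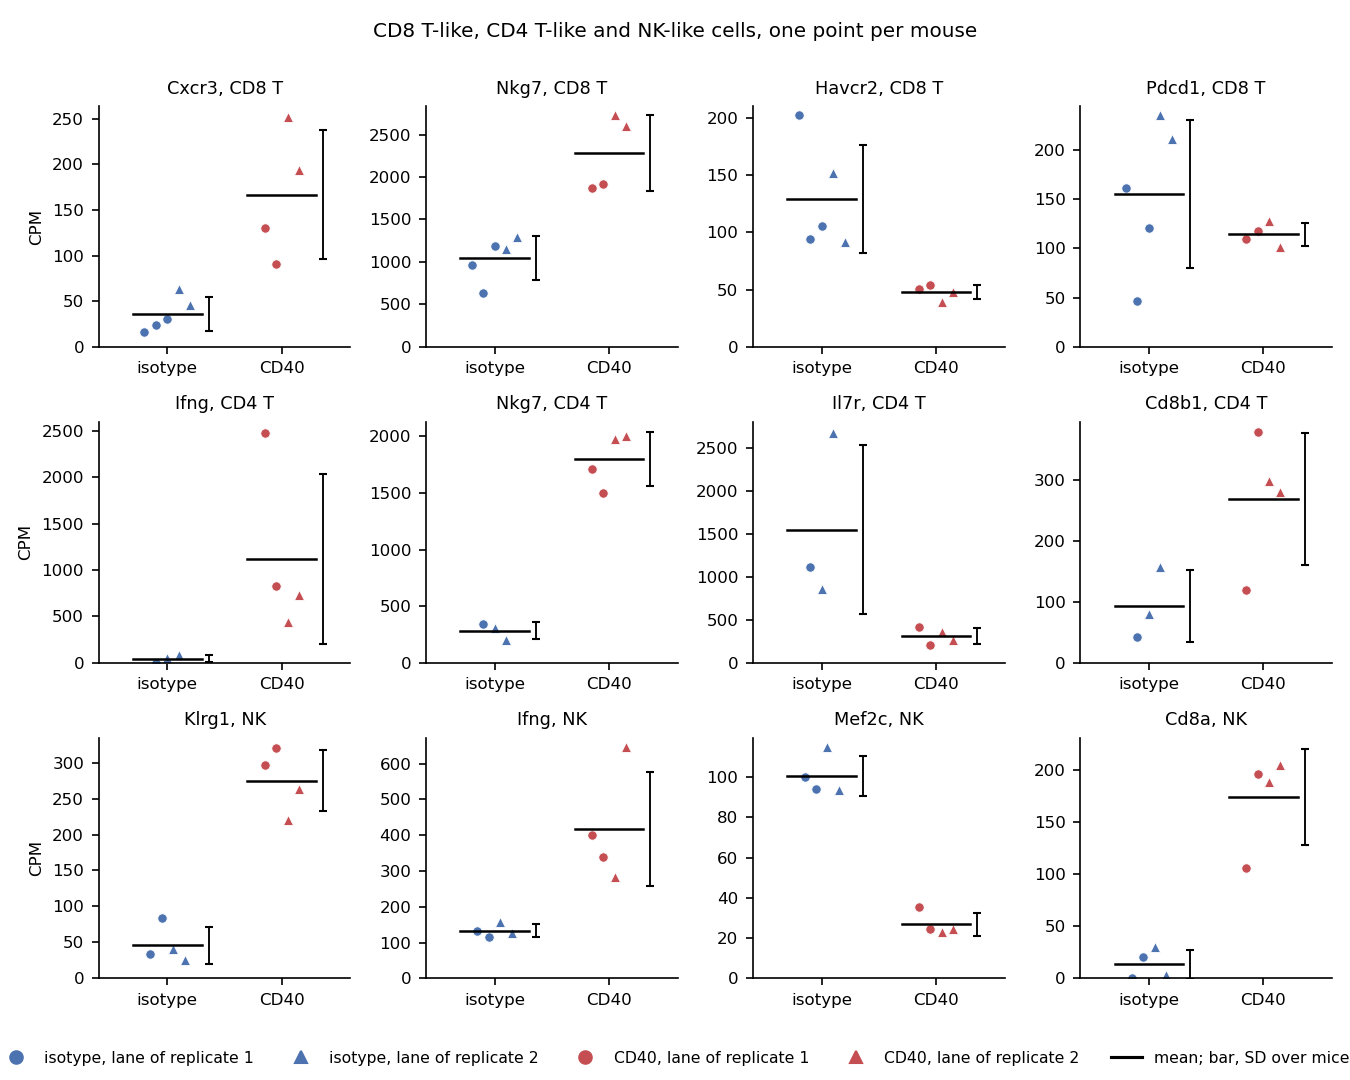
Expression per mouse (y axis, CPM of the class's summed counts, starting at 0) of 4 genes each in CD8 T-like (top), CD4 T-like (middle) and NK-like cells (bottom). Points are mice, symbols give the lane, lines are means and bars are SD. Cxcr3, Nkg7, Havcr2, Klrg1, Mef2c and the Cd8a of the NK-like class do not overlap between treatments, while Pdcd1 and the Cd8b1 of the CD4 T-like class do. Cxcr3, Klrg1, Mef2c and that Cd8a were named by a rule that asked for no overlap.

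Smaller classes are described by lane alone. Their genes too were chosen after the values were seen, and the share of all genes apart in both lanes was not computed. In regulatory T-like cells (100 and 182 cells under anti-CD40, 103 and 179 under isotype) Il2ra, the interleukin-2 receptor alpha chain, stood at 352 and 366 CPM against 694 and 640.1 CPM, and Gzmb at 1139 and 1343 CPM against 259 and 536 CPM. Foxp3, which defines the lineage, overlapped between the lanes (247 and 203 against 187 and 206 CPM). In neutrophil-like cells Cd274 stood at 758 and 579 CPM against 338 and 370.5 CPM, Nos2 at 299.7 and 104 CPM against 29.4 and 11 CPM and H2-Q7 at 574 and 594 CPM against 128 and 96.4 CPM. All 3 were higher in both anti-CD40 lanes.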

How the data were processed

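The authors deposited raw UMI counts per gene and barcode, with hashtag counts in the same matrices, per the file headers. Cell Ranger 3.0.0, bcl2fastq 2.20.0.422 and the mm10 build are named in the submitters' processing notes, and 3' version 3 chemistry in the labels' protocols. Hashtag doublets (over 2.5 SD above background for 2 hashtags) were removed, and cells with at least 20 hashtag counts went to a mouse by a Gaussian mixture (posterior of at least 0.9). The labels list 3 hashtags per pool, and the files hold 3 in 2 lanes and 2 in 6. Scrublet marked at most 0.0379% of a lane and had not worked, so its top 5% were removed only as an alternative. The 91461 remaining cells of 8 lanes were clustered (scanpy 1.11.5, 2000 variable genes, 40 components, 20 neighbours, Leiden resolution 1) into 31 clusters, 4 of them unnamed, and named by marker genes, hence "-like"; the names are rebuilt, not the authors'. Counts were summed per mouse with at least 20 cells and tested with edgeR 4.0.16 (TMM, filterByExpr, quasi-likelihood, Benjamini-Hochberg, threshold 0.05; R 4.3.3). Adjusted p-values of genes are from this test and fold changes are log2 with SE. CPM in the 5 tested classes is counts per 1000000 of a mouse's counts over the tested genes, divided by its TMM factor. In the other classes CPM is counts of the summed lane scaled to a total of 1000000, without that factor. Alternatives were RLE scaling, DESeq2 1.42.0, no filter on low counts, lanes as the unit, a replicate block, all 4 groups in the fit, a stricter cell filter and each lane or mouse left out. Genes were named by rule: per class the 5 largest rises and falls that were called, held in both lanes and did not overlap, at 20 CPM or more, up to 3 called members per list and direction, and a set of fixed genes; other list members, marker genes and genes given by lane were chosen after their values were seen. Members and lists were chosen with earlier results of these data known. For genes named for size, the lack of overlap follows from the rule. Of all genes called in macrophage-like cells, 1182 of 1514 rises and 1249 of 1651 falls held in both lanes without overlap of mice. In CD8 T-like cells it was 150 of 222 and 77 of 147. On simulated counts 2-fold changes were recovered for 99% (macrophage), 97% (monocyte), 85% (CD8 T), 50% (CD4 T) and 83% (NK) of genes, and false calls were 3.87%, 3.92%, 5.61%, 10.2% and 6.25% of calls. The changed genes, 100 per class for this fold, were drawn from those above the middle rank of expression. Mice were simulated without any effect shared by a lane. These shares therefore do not cover weaker genes or differences between lanes. Fewer cells of a class and less RNA per cell cannot be told apart in summed counts. Control tumours were used for clustering, the B2m check and the fit over all 4 groups, in which both control anti-CD40 lanes, technical replicates per the labels, were merged by hashtag. The results of some genes are not reported here.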

Additional observations from a re-analysis of the deposited data

Results flagged for a closer look

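In 118 groups of 4 or 5 mice (class shares and the genes named for size), the highest or lowest mouse was compared with the rest by Dixon's gap ratio, and 13 groups held a mouse that stood apart; chance gives about 1 in 20. B-like cells formed 3.81% in mouse 2 of isotype replicate 2, against 0.241% to 0.929% in the other isotype mice, and 2.63% in mouse 1 of anti-CD40 replicate 1, against 0.620% to 0.944%. Mouse 2 of isotype replicate 1 stood apart 3 times: mature dendritic-like cells at 11.9% against 3.21% to 5.53%, plasma-like cells at 0.232% against 0% to 0.0446%, and Cd209d in macrophage-like cells at 90.3 CPM against 14.5 to 35.6 CPM. Mouse 1 of isotype replicate 2 had 4.35 CPM of Gm15056 in macrophage-like cells against 0 to 0.604 CPM, and 8.97 CPM of Ly6i against 1.21 to 2.55 CPM, both towards the anti-CD40 values. Mouse 2 of anti-CD40 replicate 1 had 10.5 CPM of Cd163 in macrophage-like cells against 15.6 to 16.2 CPM, 69.8 CPM of Ptges in monocyte-like cells against 15.0 to 19.4 CPM, and 215 CPM of Il1rl1 in CD4 T-like cells against 84.0 to 99.8 CPM. Hlf in CD4 T-like cells was detected in mouse 1 of anti-CD40 replicate 2 alone of its group, at 4.35 CPM. In NK-like cells mouse 1 of anti-CD40 replicate 1 had 106 CPM of Cd8a against 189 to 205 CPM, and 35.5 CPM of Mef2c against 23.1 to 24.6 CPM, both towards the isotype values.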

How the results depend on the processing

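The number of classes whose share passed went from 5 to 0 with all cells by lane, with the replicate block (permutation within replicate number) and with any lane or mouse left out (0 in each). The differences of shares in percentage points, with all cells by lane and then with the replicate block, were 20.1 and 18.4 for CD8 T, -3.20 and -3.26 for cDC1, -4.35 and -3.88 for cDC2, -4.49 and -5.23 for mature dendritic and -2.67 and -2.79 for pDC. With a lane or mouse left out they ran from 10.2 to 26.6 for CD8 T, -4.17 to -1.90 for cDC1, -4.62 to -2.77 for cDC2, -6.62 to -3.14 for mature dendritic and -2.94 to -2.56 for pDC. The macrophage count of 3165 genes went to 1501 with lanes as the unit and 1503 with the replicate 2 lanes alone, an alternative chosen after seeing the data because fewer replicate 1 barcodes could be given to a mouse, and ran from 1076 to 3240 with a lane or mouse left out. The monocyte count of 3005 went to 1923 and 1581, and ran from 1711 to 3038. The CD8 T count of 369 went to 14 with lanes, 2379 with the replicate 2 lanes, 708 with no filter on low counts, 958 with all 4 groups, 89 with the stricter cell filter and 1430 with the replicate block, and ran from 33 to 1549. The CD4 T count of 263 went to 75, 522, 418 (all 4 groups), 65 (stricter filter) and 487 (block), and ran from 68 to 463. The NK count of 338 went to 55, 548, 586 (all 4 groups), 168 (stricter filter), 705 (block) and 191 with DESeq2, and ran from 146 to 326. Under DESeq2 the higher share of calls was 60.0% in place of 47.1% in CD4 T and 74.9% in place of 62.1% in NK. Replicate numbers of lanes do not pair them by design; deviations of same-numbered lanes correlated at 0.125 to 0.338 in the 5 classes, with 2 numbers only. Of named genes 1 reversed, Tcf7 in CD4 T, which ran from -2.05 to 0.01 with a lane or mouse left out. The value of 0.01 came without isotype replicate 2, a setting that left 1 isotype mouse. The cause was not tested for any of these shifts. With the replicate 2 lanes alone 44 of 68 named macrophage genes and 35 of 68 named monocyte genes lost the call, with 2 mice a group. Named lymphocyte genes, called or not, weakened in other settings. Of 36 such CD8 T-like genes, 23 were weaker with lanes as the unit and 13 stayed the same. The stricter cell filter left 19 of these 36 weaker, 16 the same and 1 stronger. Among 22 CD4 T-like genes, lanes weakened 10 and that filter 9. For NK-like cells, lanes weakened 14 of 29 genes and the filter 9 of 27. The other CD4 T-like and NK-like genes stayed the same in both settings. In CD4 T, with the fewest mice and genes tested, 50% of simulated 2-fold changes in genes above the middle rank of expression were recovered. The part of depth in this was not tested.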
